A study of Mus musculus with 8 samples.

Results

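The 32 genes described here encode integrin chains, the immunoglobulin-type adhesion molecules VCAM1, ICAM1, ICAM2 and MAdCAM-1, and the selectins E and P, chosen by symbol and all found among the 55487 genes of the count table. RNA sequencing measured them in 8 tumors of Lewis lung carcinoma (LLC), a lung cancer line of the mouse that was implanted subcutaneously in C57BL/6J animals 12 days earlier. The cancer cells were wild-type in 4 tumors and carried the label Ago2 knock-out (ΔAgo2) in the other 4, and there was 1 batch label for all. Argonaute 2 (Ago2) binds small RNAs and guides them to messenger RNAs with matching sequence, and the study profiled the tumors to ask how it favors tumor growth. The knock-out was made in the cancer cells with a lentiviral CRISPR guide and single-cell cloning, so a difference between groups could also be a property of the clone, and the host cells of every tumor kept Ago2. The mice were females obtained at an age of 6 to 8 weeks, before a period of acclimation.

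Integrins are paired receptors of an alpha and a beta chain that bind matrix proteins or other cells and tie them to the cytoskeleton through talins and kindlins. Leukocyte integrins such as LFA-1 (Itgal with Itgb2) and VLA-4 (Itga4 with Itgb1) hold white blood cells on the vessel wall by binding ICAM1 and VCAM1, after selectins have slowed the cells. In tumors, VCAM1 is found on vessels, on macrophages and on some cancer cells, and its level rises with inflammatory cytokines. Because whole tumors were sequenced, fewer cells of a type and less RNA per cell cannot be told apart in any value given here.

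Because Ago2 acts through microRNAs, the 3′ ends of the genes were searched for the 7 bases that pair with the seed (bases 2 to 8) of 13 microRNAs chosen from general knowledge. The mature microRNAs are RefSeq sequences of build GRCm38.p6 and are printed 5′ to 3′ with the seed in capitals, for the families whose matches lie in the genes that passed the test below:
miR-126a-3p: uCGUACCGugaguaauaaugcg
let-7a-5p: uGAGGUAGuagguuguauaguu
miR-25-3p: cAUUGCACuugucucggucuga
miR-92a-3p: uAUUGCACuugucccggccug
miR-21a-5p: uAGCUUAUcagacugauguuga
miR-29a-3p: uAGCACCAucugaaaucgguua
miR-30a-5p: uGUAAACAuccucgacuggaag
miR-200b-3p: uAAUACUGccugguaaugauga
The seed AUUGCAC is shared by miR-25-3p and miR-92a-3p, so their matches are the same sites. A match to the seed of miR-126a-3p, a microRNA of endothelial cells, was held by 25 of the 13657 tested genes with an annotated 3′ end (0.183%), and Vcam1 and Itga11 were among them. The panel was chosen by hand and not at random, so this share does not measure how unexpected the match in Vcam1 is. A let-7a-5p match was held by 10.1% of those genes and by 5 of the 30 tested members (Itga2, Itga4, Itgal, Itgb3 and Itgb8). A match for miR-25-3p and miR-92a-3p was held by 7.18% of the genes and by Itga5, Itga6, Itga8, Itgav and Itgb3. The seeds of miR-21a-5p and miR-200b-3p were also matched in Itgav, and those of miR-29a-3p and miR-30a-5p in Itgb3, where 7.5%, 14.6%, 15% and 15.5% of the genes held them. Itga7 held none of the 13, in a 3′ end of 428 bases, whereas Itgav and Itgb3 have 3′ ends of 3581 and 3331 bases. The matches are printed with the 7 pairing bases in capitals, on the strand of the gene, with GRCm38 positions:
Vcam1, miR-126a-3p, chr3:116110241-116110266, minus strand: ctacatggtactgtaCGGTACGggga
Itgav, miR-25-3p and miR-92a-3p, chr2:83804749-83804774, plus strand: tatagctctatttttGTGCAATtaca
Itgav, miR-25-3p and miR-92a-3p, chr2:83806400-83806425, plus strand: tgtcattgttcttaaGTGCAATataa
Itgav, miR-21a-5p, chr2:83803781-83803806, plus strand: actacagttgacttcATAAGCTactg
Itgav, miR-200b-3p, chr2:83803974-83803999, plus strand: gtattaacaatggtaCAGTATTttta
Itgb3, let-7a-5p, chr11:104668417-104668442, plus strand: ggtgcttgtgtgtatCTACCTCttcg
Itgb3, miR-25-3p and miR-92a-3p, chr11:104668583-104668608, plus strand: tctgggaggccacaaGTGCAATttta
Itgb3, miR-29a-3p, chr11:104670076-104670101, plus strand: ctggaatgaggcttgTGGTGCTtggg
Itgb3, miR-30a-5p, chr11:104667179-104667204, plus strand: gactctctgccattaTGTTTACagag
A match describes the letters only, and no binding was measured in these tumors.

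Library totals ran from 7903288 to 52809635 counts in wild-type tumors and from 31846706 to 268564145 in ΔAgo2 tumors, so low genes were measured least precisely in wild-type tumor 4, where a count of 0 allows up to 0.43 CPM (counts scaled to a common library total by the TMM method). Such limits cover counting error only. Ago2 itself ran from 129.9 to 195 CPM in wild-type and from 118.3 to 354.7 CPM in ΔAgo2 tumors, a log2 difference of 0.64 (edgeR adjusted p = 0.205), so its transcript was not lower and does not check the labels. Markers of skeletal muscle summed to between 264.4 and 3600 CPM in wild-type and between 52.4 and 213.9 CPM in ΔAgo2 tumors, and markers of fibroblasts and pericytes to between 4716 and 6972 against between 2217 and 4637 CPM, so in both sums every wild-type tumor lay above every ΔAgo2 tumor. Most of the fibroblast sum was Col3a1 and Col1a1, and without these 2 collagens the other 8 markers summed to between 451.2 and 809.9 CPM in wild-type and between 502.4 and 738.2 CPM in ΔAgo2 tumors, which overlapped. Skin keratinocyte markers summed to between 14.1 and 607.4 CPM against between 517.7 and 1000 CPM. The label's lung carcinoma type was represented by simple epithelial markers at summed levels between 501.3 and 1261 CPM in the 8 tumors.

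Of the 32 genes, 30 passed the count filter and were tested. VCAM1 and the integrin chains αv and β3 were higher in ΔAgo2 tumors and the integrin chain α7 was lower, and no other member passed an edgeR adjusted p of 0.05. The 3 higher genes are 10% of the members tested, beside 1.36% of all 16061 genes tested. The 1 lower gene is 3.33%, beside 2.12% of all genes. In 5 members (16.7%) all ΔAgo2 tumors lay above all wild-type tumors in CPM, beside 8.05% of all genes, and in 4 members (13.3%) all lay below, beside 8.36%. The 5 include Itgb8, which passed the count filter through the ΔAgo2 tumors and whose separation was not established at the depth of wild-type tumor 4. An unadjusted p under 0.05 in edgeR's test was reached by 13.7% of all genes on the higher and 13.0% on the lower side. DESeq2's Wald test called 6 members higher and 4 lower (20.0% and 13.3%), beside 6.99% and 7.17% of all genes, and limma voom called 8 and 5 (26.7% and 16.7%), beside 14.9% and 13.0%. The median log2 fold change (ΔAgo2 minus wild-type) was 0.02 over the members tested and 0.04 over all genes, with 15 members above 0 and 15 below. Single tumors decided how many members were called: none passed without ΔAgo2 tumor 4, 1 when wild-type tumor 2 was left out, 7 when wild-type tumor 3 was and 8 when ΔAgo2 tumor 1 was (edgeR). The number of all genes called moved with these counts, from 560 with all tumors to 88, 143, 934 and 1793.

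**Figure D1:**
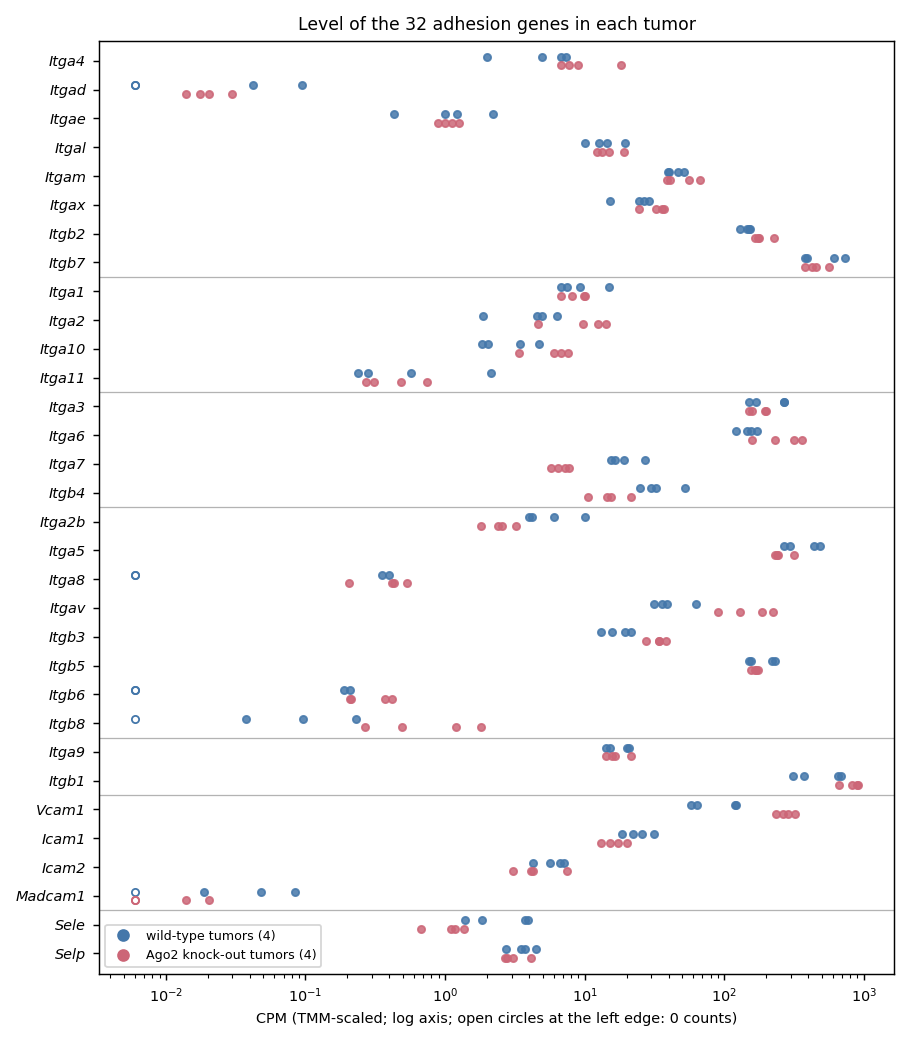
Level of each of the 32 genes in CPM (log axis) with 1 point per tumor, blue for the 4 wild-type and red for the 4 ΔAgo2 tumors, in blocks from leukocyte integrins at the top to selectins at the bottom; open circles stand for 0 counts. The red points of Vcam1, Itgav, Itgb3, Itgb8 and Itgb2 all lie to the right of the blue ones (Itgb8 with 0 counts in wild-type tumor 4), and those of Itga7, Itgb4, Itga2b and Sele all lie to the left.

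**Figure D2:**
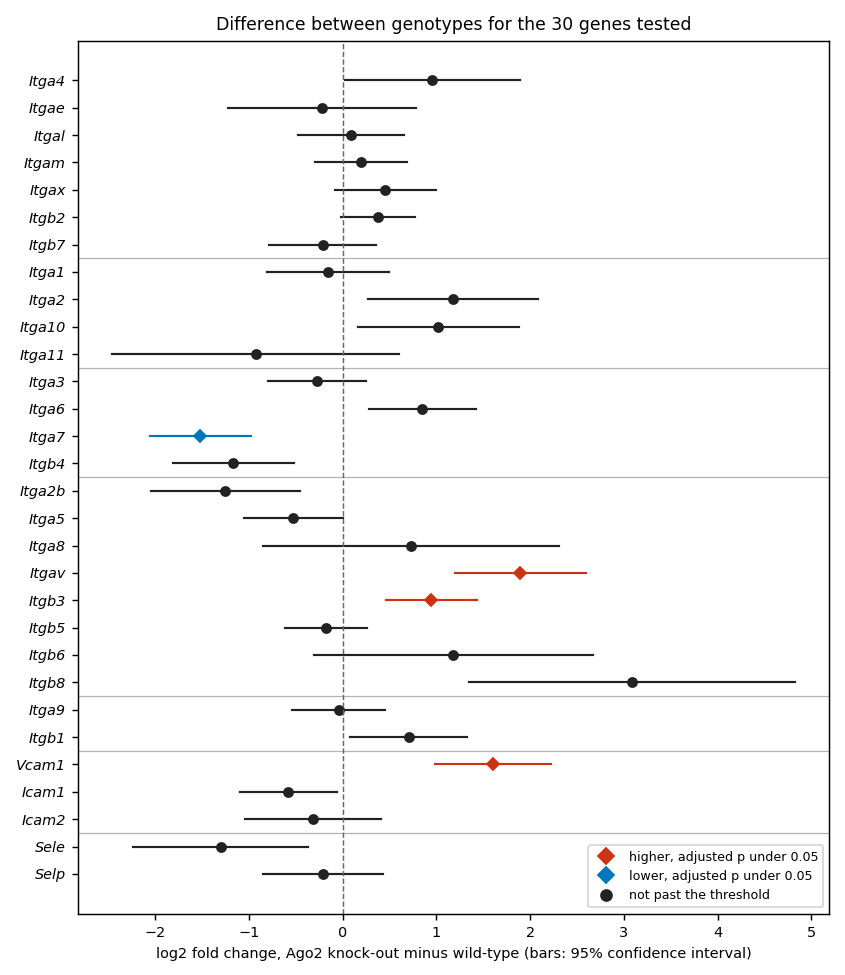
Log2 fold change of each of the 30 genes tested, ΔAgo2 minus wild-type, as a point with its 95% confidence interval from edgeR's quasi-likelihood fit, in the same order. Itgav, Vcam1 and Itgb3 (red diamonds) and Itga7 (blue diamond) passed the threshold; the interval of Itgb8 is the widest, from 1.35 to 4.83.

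Vcam1 (ENSMUSG00000027962.14, chromosome 3, positions 116109949 to 116129688 of GRCm38, minus strand) encodes the cell-surface ligand of the integrins α4β1 and α4β7. The 4 wild-type tumors had 120.6, 64.1, 122.2 and 57.9 CPM, in the order of their numbers, and the 4 ΔAgo2 tumors had 234.3, 323.4, 264.3 and 287.8 CPM. The lowest ΔAgo2 tumor therefore had 234.3 CPM against 122.2 CPM in the highest wild-type tumor, a gap wider than the spread of either group. The log2 fold change of 1.60 (standard error 0.28) passed edgeR's quasi-likelihood test (adjusted p = 0.0148, Benjamini-Hochberg over all genes tested). Vcam1 is among the interferon signature genes that the study chose on these tumors, so its direction is not independent evidence. Its call was lost on leaving out wild-type tumor 2 (1.47, edgeR adjusted p = 0.0588) or ΔAgo2 tumor 4 (1.60, edgeR adjusted p = 0.0583). Its longest transcript is 40.1% GC, the lowest of the 32 genes, and after removal of each library's trend on GC content the log2 fold change was 0.89 with an edgeR adjusted p of 0.00768.

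Vcam1 was next set against summed markers of endothelial cells and of leukocytes as a whole. Endothelial markers summed to between 388.5 and 591.9 CPM in wild-type and between 347.7 and 426.4 CPM in ΔAgo2 tumors. None of the 12 was called by edgeR, DESeq2 or limma voom, with 1 lower at an unadjusted p under 0.05 in edgeR's test, beside 13.0% of all genes. The endothelial genes Pecam1 and Cdh5 had means of 43.7 ± 10.2 and 39.1 ± 8.79 CPM (SD, n = 4) in wild-type and 43.1 ± 6.5 and 37.6 ± 7.67 CPM (SD, n = 4) in ΔAgo2 tumors. Vcam1 amounted to between 10.3% and 31.0% of the endothelial sum in wild-type tumors and between 59.3% and 93.0% in ΔAgo2 tumors. Against the summed pan-leukocyte markers it amounted to between 4.43% and 13.9%, and then to between 17.98% and 34.0%. Both shares were higher in every ΔAgo2 tumor than in any wild-type tumor. The pan-leukocyte sum overlapped between groups, whereas its gene Ptprc alone ran from 13.9 to 33.1 CPM in wild-type and from 35.5 to 83.6 CPM in ΔAgo2 tumors. Vcam1 was not set against Ptprc alone or against macrophage or cancer cell markers. Which cells carried the transcript was not tested.

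None of the 5 tested chains of the VCAM1 receptors passed edgeR's threshold. On the higher side 2 (Itga4 and Itgb1) had an unadjusted p under 0.05, DESeq2 called none and limma voom 1, beside 13.7%, 6.99% and 14.9% of all genes. Itga4, the α4 chain shared by both main receptors, stood at 7.37, 4.96, 6.79 and 2.01 CPM in wild-type and at 6.81, 18.3, 7.7 and 9.03 CPM in ΔAgo2 tumors. The groups overlapped, with ΔAgo2 tumor 2 the highest, and the log2 fold change of 0.95 (95% confidence interval 0.02 to 1.89) had an edgeR adjusted p of 0.180. After the GC correction it was 0.25, and 1124 of its exon bases overlap Cerkl on the opposite strand. Itgb1, the β1 chain that pairs with most alpha chains, stood at 658.3, 373.5, 687.4 and 309.5 CPM in wild-type and at 662.8, 914.2, 828 and 898.4 CPM in ΔAgo2 tumors. Wild-type tumor 3 exceeded ΔAgo2 tumor 1, and the log2 fold change of 0.70 (0.08 to 1.33) had an edgeR adjusted p of 0.152. Itgb7, the partner of α4 and αE on lymphocytes of the gut, stood at 377.3, 612.5, 393.2 and 736.2 CPM in wild-type and at 561.2, 423.1, 458.3 and 381.4 CPM in ΔAgo2 tumors. Its log2 fold change was -0.22 (-0.79 to 0.36) with an edgeR adjusted p of 0.609. Itga9, whose product with β1 also binds VCAM1, ran from 14.2 to 20.8 CPM in wild-type and from 14.3 to 21.4 CPM in ΔAgo2 tumors, with a log2 fold change of -0.04 (-0.54 to 0.45). Itgad, the αD chain that pairs with β2, had at most 5 counts in any library and was not tested. Per gene length, Vcam1 exceeded Itga4 by 20.4- to 45.4-fold in wild-type and by 27.9- to 54.2-fold in ΔAgo2 tumors in TPM (counts divided by gene length and scaled to a common total), and these ranges overlapped.

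**Figure D3:**
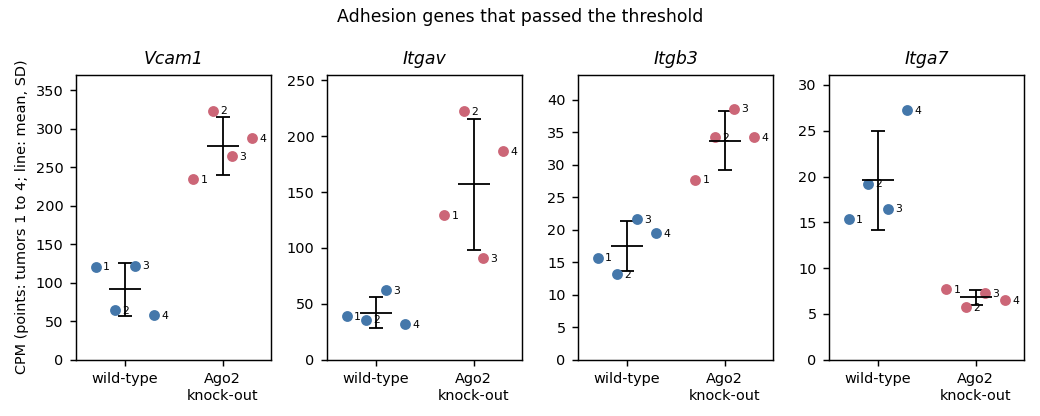
CPM of the 4 genes that passed the threshold, with 1 numbered point per tumor (blue wild-type, red ΔAgo2) and lines for the mean and SD of 4 tumors, on axes that start at 0. Vcam1 reaches at most 122.2 CPM in wild-type and at least 234.3 CPM in ΔAgo2 tumors; Itga7 lies between 15.4 and 27.2 CPM in wild-type and between 5.75 and 7.69 CPM in ΔAgo2 tumors.

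Neither the other counter-receptors nor the selectins passed edgeR's threshold beside Vcam1. DESeq2 called Sele lower (DESeq2 adjusted p = 0.0199), beside 7.17% of all genes. Sele and Icam1 were called lower by limma voom (limma voom adjusted p = 0.0466 and 0.0203), beside 13.0% of all genes. Icam1, the ligand of LFA-1 and Mac-1, stood at 22.1, 31.6, 18.4 and 25.9 CPM in wild-type and at 20, 17.3, 15.1 and 13.1 CPM in ΔAgo2 tumors. The groups overlapped, since ΔAgo2 tumor 1 lay above wild-type tumor 3, and the log2 fold change of -0.58 (-1.10 to -0.07) had an edgeR adjusted p of 0.15. Of its exon bases, 511 overlap the predicted gene Gm47079 on the opposite strand. Icam2, a ligand of LFA-1 held by resting endothelium and platelets, stood at 4.25, 6.72, 5.66 and 7.17 CPM in wild-type and at 7.49, 3.07, 4.15 and 4.26 CPM in ΔAgo2 tumors. Its log2 fold change was -0.32 (-1.05 to 0.41). Madcam1, the vessel ligand of α4β7 in the gut, had at most 4 counts in any library and was not tested. Sele, E-selectin of activated endothelium, stood at 1.85, 1.38, 3.93 and 3.73 CPM in wild-type and at 0.677, 1.18, 1.1 and 1.38 CPM in ΔAgo2 tumors. All ΔAgo2 tumors lay below all wild-type tumors in CPM, with wild-type tumor 2 and ΔAgo2 tumor 4 almost equal. In TPM ΔAgo2 tumor 4 (1.61) lay above wild-type tumor 2 (1.35). The log2 fold change of -1.30 (standard error 0.42) had an edgeR adjusted p of 0.0998. Selp, P-selectin of platelets and endothelium, stood at 3.5, 3.77, 4.52 and 2.72 CPM in wild-type and at 2.69, 2.8, 4.12 and 3.05 CPM in ΔAgo2 tumors, with a log2 fold change of -0.21 (-0.85 to 0.43).

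Icam1 and Sele are textbook targets of NF-kB, the transcription factor of inflammatory signaling, as Vcam1 is, and their promoters are shown because their log2 fold changes lay below 0 while that of Vcam1 lay above it. RefSeq promoter windows (GRCm38.p6, from 250 bases before to 50 after the start) were matched for 22 of the 32 genes, and Vcam1 was not among them, so its promoter was not searched. The letters GGNNNTTCC, a loose form of an NF-kB site, were found on either strand in the windows of Icam1, Itga2, Itga5, Itgb1, Madcam1, Sele and Selp, 31.8% of the 22 genes, beside 18.5% of all 32851 windows. The NF-kB consensus was found in Itga3 and Madcam1 (9.09%, beside 8.46% of all windows), and TATAAA in Icam1 and Sele (9.09%, beside 13.6%). The letters GGGCGG, an Sp1 box, were found in 9 genes (40.9%, beside 35.7%). The 250 bases before each start are printed on the plus strand with GGNNNTTCC on either strand, and TATAAA, in capitals:
Icam1, chr9:21015690-21015939: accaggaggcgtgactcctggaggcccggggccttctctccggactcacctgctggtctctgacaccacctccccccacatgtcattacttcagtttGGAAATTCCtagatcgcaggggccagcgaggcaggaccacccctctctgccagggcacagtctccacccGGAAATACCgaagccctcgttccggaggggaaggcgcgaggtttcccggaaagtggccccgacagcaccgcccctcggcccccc
Sele, chr1:164047984-164048233: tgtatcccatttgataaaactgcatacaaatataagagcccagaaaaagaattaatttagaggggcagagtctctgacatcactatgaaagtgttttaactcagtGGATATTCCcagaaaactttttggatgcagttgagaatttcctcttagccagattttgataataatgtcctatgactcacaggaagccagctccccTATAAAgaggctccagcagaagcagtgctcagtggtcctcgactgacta
In Icam1 the matches begin 153 and 84 bases before the start, the nearer of them on the minus strand, and in Sele the match to GGNNNTTCC begins 145 and TATAAA 49 bases before it. The TATAAA of Icam1 lies outside the stretch shown.

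None of the 7 leukocyte integrin chains tested passed the threshold by edgeR, DESeq2 or limma voom, and 1 of them, Itga4, had an unadjusted p under 0.05 in edgeR's test. Their median log2 fold change was 0.19, beside 0.33 over the 18 other integrin chains, of which 2 were higher and 1 lower, and 0.04 over all genes. The order of the first 2 medians turned in 6 of 21 alternatives, for example to 0.28 and -0.10 with at least 10 counts in every library and to 0.28 and 0.20 without wild-type tumor 2. Of the 18 other chains 9 lay above 0 and 9 below, and their median fell between Itga9 at -0.04 and Itgb1 at 0.70. Those above 0 included Itgb8 and Itgb6, which had at most 11 and 10 counts in any wild-type tumor. The filter of 10 counts in every library left both out, so the order of the medians was not established. Itgb2, the β2 chain common to LFA-1, Mac-1 and p150,95, stood at 150.5, 154.5, 129.6 and 144.8 CPM in wild-type and at 166.1, 229.2, 179.2 and 176.1 CPM in ΔAgo2 tumors. Every ΔAgo2 tumor lay above every wild-type tumor in CPM, but in TPM ΔAgo2 tumor 1 (119.4) lay below wild-type tumor 2 (144.2). The log2 fold change of 0.37 (standard error 0.18) had an edgeR adjusted p of 0.209. Its alpha partners were less separated: Itgal of LFA-1 ran from 10.03 to 19.4 CPM in wild-type and from 12.3 to 19.3 CPM in ΔAgo2 tumors, with a log2 fold change of 0.09. Itgam of Mac-1, found on macrophages and neutrophils, ran from 39.3 to 51.5 and from 38.9 to 67.4 CPM, with a log2 fold change of 0.19, and 3450 of its exon bases are shared with the predicted gene Gm49368 on the same strand, so its counts are uncertain. Itgax of p150,95, carried by dendritic cells and macrophages, ran from 15.2 to 28.8 and from 24.7 to 37.4 CPM, with a log2 fold change of 0.45 (-0.08 to 0.99) and an edgeR adjusted p of 0.250. As a share of the pan-leukocyte marker sum, Itgax made up between 1.73% and 2.54% in wild-type and between 2.74% and 3.48% in ΔAgo2 tumors, whereas this share overlapped between groups for the other 6 chains tested (Itgal, Itgam, Itgb2, Itga4, Itgb7 and Itgae). The separation of Itgax holds for this sum only. Ptprc, a gene of that list, was itself higher in every ΔAgo2 tumor, as given below, and Itgax was not set against it. Itgae, the αE chain (CD103) of tissue-resident T cells and some dendritic cells, ran from 0.429 to 2.19 and from 0.895 to 1.25 CPM, with a log2 fold change of -0.22.

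None of the 12 pan-leukocyte markers passed edgeR's threshold. On the higher side 1 had an unadjusted p under 0.05 and DESeq2 and limma voom each called 1, beside 13.7%, 6.99% and 14.9% of all genes. The list summed to between 880.9 and 1306 CPM in wild-type and between 846.9 and 1303 CPM in ΔAgo2 tumors. Its defining gene Ptprc (CD45) stood at 33.1, 23.1, 25.8 and 13.9 CPM in wild-type and at 35.5, 83.6, 40.9 and 49.6 CPM in ΔAgo2 tumors, a log2 difference of 1.12 (edgeR adjusted p = 0.0785). The summed list and its defining gene thus differed in their pattern, since the sums overlapped and the 4 ΔAgo2 values of Ptprc lay above the 4 wild-type values. The summed markers of macrophages and monocytes ran from 2097 to 2652 CPM and from 1879 to 3928 CPM, and those of T and NK cells from 19.0 to 42.4 CPM and from 30.4 to 80.0 CPM.

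Among the chains that bind the tripeptide RGD in fibronectin, vitronectin and latent TGF-beta, Itgav and Itgb3 rose and the others did not pass edgeR's threshold. DESeq2 and limma voom also called Itgb8 higher and Itga2b lower, to be read against the shares of all genes given above. Itgav (ENSMUSG00000027087.11, chromosome 2, positions 83724397 to 83806916, plus strand) encodes αv, the partner of β1, β3, β5, β6 and β8. It stood at 39.0, 35.8, 62.4 and 31.7 CPM in wild-type and at 129.2, 222.4, 90.9 and 186.5 CPM in ΔAgo2 tumors. The lowest ΔAgo2 tumor lay above the highest wild-type tumor, and ΔAgo2 tumor 2 had more than any other. The log2 fold change was 1.89 (standard error 0.32, edgeR adjusted p = 0.0124). The call was lost on leaving out wild-type tumor 2 (1.82, edgeR adjusted p = 0.0588) or ΔAgo2 tumor 4 (1.81, edgeR adjusted p = 0.0529), and 634 exon bases overlap Gm13684 on the opposite strand.

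Itgb3 (ENSMUSG00000020689.4, chromosome 11, positions 104608000 to 104670476, plus strand) encodes β3, which pairs with αv and, on platelets, with αIIb. It stood at 15.7, 13.2, 21.6 and 19.5 CPM in wild-type and at 27.7, 34.2, 38.6 and 34.2 CPM in ΔAgo2 tumors. The groups did not overlap in CPM, whereas in TPM ΔAgo2 tumor 1 (10.28) lay below wild-type tumor 3 (10.55). The log2 fold change was 0.95 (standard error 0.22, edgeR adjusted p = 0.0455). This call was lost without any 1 of wild-type tumors 1, 2 and 4 and ΔAgo2 tumors 2, 3 and 4, with edgeR adjusted p-values between 0.0690 and 0.146 and log2 fold changes between 0.83 and 1.01. The platelet partner Itga2b stood at 4.2, 6.05, 3.97 and 10.03 CPM in wild-type and 3.2, 1.82, 2.57 and 2.42 CPM in ΔAgo2 tumors, with every ΔAgo2 tumor below the wild-type tumors but an edgeR adjusted p of 0.0763 for a log2 fold change of -1.25. Without ΔAgo2 tumor 1 or wild-type tumor 3 it passed, at -1.40 (edgeR adjusted p = 0.0483) and -1.41 (edgeR adjusted p = 0.0496). Of 10 platelet markers 3 were tested, all with a negative log2 fold change and none called by edgeR or DESeq2 (1 by limma voom, none at an unadjusted p under 0.05 in edgeR's test), and 6 were at 0 in at least 1 library. The list summed to between 45.0 and 88.6 CPM in wild-type and between 22.7 and 88.3 CPM in ΔAgo2 tumors, most of it Pf4, and its part in the Itga2b values was not tested.

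The remaining αv partners differed in level by orders of magnitude. Itgb5, the broadly expressed β5 chain, ran from 150.3 to 232 CPM in wild-type and from 156.7 to 174.7 CPM in ΔAgo2 tumors, with a log2 fold change of -0.18. Itgb8, whose product with αv activates latent TGF-beta, had 2, 2, 11 and 0 counts in wild-type and 24, 206, 9 and 341 counts in ΔAgo2 tumors, or at most 0.231 CPM and at least 0.269 CPM. The 0 counts in wild-type tumor 4 allow up to 0.43 CPM, above the 0.269 CPM of ΔAgo2 tumor 3, so the separation of the groups was not established at this depth. Its log2 fold change was 3.09 (standard error 0.79, edgeR adjusted p = 0.0588), and since the wild-type tumors were close to 0 it passed the count filter through the ΔAgo2 tumors. It passed the test on leaving out wild-type tumor 3 (4.21, edgeR adjusted p = 0.0397) or ΔAgo2 tumor 1 (3.29, edgeR adjusted p = 0.0385). Itgb6, the epithelial β6 chain, and Itga8, the α8 chain of smooth muscle and mesenchyme, reached at most 0.420 and 0.535 CPM in any tumor, both with 0 counts in wild-type tumors 2 and 4. Itga5, the fibronectin receptor chain, stood at 295.5, 437.4, 267.1 and 487.9 CPM in wild-type and at 232, 239.6, 316.9 and 243.3 CPM in ΔAgo2 tumors, with a log2 fold change of -0.53 (-1.06 to 0.00) and an edgeR adjusted p of 0.188.

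Of the laminin-binding chains, Itga7 fell. Itga7 (ENSMUSG00000025348.9, chromosome 10, positions 128933818 to 128958282, plus strand) encodes α7, the laminin receptor chain of skeletal, cardiac and smooth muscle. It stood at 15.4, 19.2, 16.5 and 27.2 CPM in wild-type and at 7.69, 5.75, 7.25 and 6.49 CPM in ΔAgo2 tumors. The groups did not overlap, with SDs of 5.36 CPM among wild-type and 0.855 CPM among ΔAgo2 tumors, and the log2 fold change was -1.52 (standard error 0.25, edgeR adjusted p = 0.0107). The call was lost without ΔAgo2 tumor 4 (-1.48, edgeR adjusted p = 0.0612). All 10 skeletal muscle markers tested had a negative log2 fold change, with a median of -2.92, and Myh2 passed the threshold. Wild-type tumor 3, which held by far the most muscle marker RNA (3600 CPM in sum, with Acta1 at 1429 and Ckm at 509.1 CPM), had 16.5 CPM of Itga7. Without that tumor the log2 fold change of Itga7 was -1.59 with an edgeR adjusted p of 0.0161. The muscle marker sums were lower in every ΔAgo2 tumor, as Itga7 was, and their part in the Itga7 values was not tested.

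The other laminin-binding chains did not pass edgeR's threshold. DESeq2 called Itgb4 lower and Itga6 higher (DESeq2 adjusted p = 0.00421 and 0.0288). So did limma voom (limma voom adjusted p = 0.0102 and 0.0076), while Itga3 was called by neither. The shares of all genes called by DESeq2 were 6.99% higher and 7.17% lower, and by limma voom 14.9% and 13.0%. Itgb4, which pairs with α6 in the hemidesmosomes of epithelia, stood at 30, 52.2, 24.9 and 32.7 CPM in wild-type and at 10.5, 14.4, 21.7 and 15.6 CPM in ΔAgo2 tumors. All ΔAgo2 tumors lay below all wild-type tumors in CPM, but in TPM ΔAgo2 tumor 3 (9.74) lay above wild-type tumor 4 (9.39). The log2 fold change was -1.17 (standard error 0.29, edgeR adjusted p = 0.0559). Without wild-type tumor 3 Itgb4 passed (-1.30, edgeR adjusted p = 0.0405). It also passed edgeR's test with no count filter, at equal depth and with the length correction. After the GC correction it was -0.59, its longest transcript being 60% GC. Itga6, its partner, stood at 154.9, 146.5, 171.7 and 121.4 CPM in wild-type and at 159.2, 361, 233.4 and 319 CPM in ΔAgo2 tumors. Only ΔAgo2 tumor 1 lay within the wild-type range, and the log2 fold change of 0.85 (0.28 to 1.43) had an edgeR adjusted p of 0.0896. Itga6 passed without ΔAgo2 tumor 1, at 1.03 with an edgeR adjusted p of 0.0243. Keratinocyte markers, of the epithelium that carries α6β4 in skin, gave a positive log2 fold change in 10 of 10 genes with Krt10 called. Their sums were 607.4, 596.2, 14.1 and 169.7 CPM in wild-type and 549.6, 517.7, 976 and 1000 CPM in ΔAgo2 tumors, so they did not follow Itgb4 between groups, and their part in its values was not tested. Itga3, the other epithelial laminin receptor chain, ran from 150.1 to 267.7 CPM and from 151.5 to 199.1 CPM, with a log2 fold change of -0.28.

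None of the 4 collagen-binding chains passed edgeR's threshold and all overlapped between groups. On the higher side 2 had an unadjusted p under 0.05, DESeq2 called 1 and limma voom 2, beside 13.7%, 6.99% and 14.9% of all genes. Itga2, the α2 chain of platelets and epithelia, stood at 4.93, 4.53, 6.39 and 1.86 CPM in wild-type and at 4.62, 14.2, 9.73 and 12.4 CPM in ΔAgo2 tumors. Only ΔAgo2 tumor 1 lay within the wild-type range, and the log2 fold change of 1.18 (0.27 to 2.09) had an edgeR adjusted p of 0.114. Without ΔAgo2 tumor 1 Itga2 passed, at 1.41 with an edgeR adjusted p of 0.0398. Itga10, the α10 chain of cartilage, ran from 1.83 to 4.72 CPM and from 3.41 to 7.65 CPM, a log2 difference of 1.02 (edgeR adjusted p = 0.133), and 1739 of its exon bases are shared with Gm42957 on the same strand. Itga1, of mesenchymal cells and resident T cells, ran from 6.74 to 15.1 CPM and from 6.81 to 10.1 CPM. Itga11, the fibroblast collagen receptor chain, ran from 0.238 to 2.14 CPM and from 0.272 to 0.746 CPM, and wild-type tumor 3 alone lay above the highest ΔAgo2 tumor.

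Because these proteins work in pairs, ratios of TPM between genes of the same tumor were formed, after the values of the single genes had been seen and without a test. Itga6 exceeded Itgb4 by 2.18- to 5.37-fold in wild-type and by 8.37- to 19.5-fold in ΔAgo2 tumors. The ratio of Itga6 to its other partner Itgb1 lay between 0.106 and 0.177 in wild-type and between 0.109 and 0.178 in ΔAgo2 tumors, and these ranges overlapped. Itgb3 exceeded Itga2b by 1.8- to 5.02-fold in wild-type and by 7.97- to 17.3-fold in ΔAgo2 tumors. Itga5 exceeded Itgav by 9.33- to 33.6-fold in wild-type and by 2.35- to 7.6-fold in ΔAgo2 tumors, so the excess of the α5 over the αv chain was smaller in every ΔAgo2 tumor. The ratio of Itga5 to Itgb1 lay between 0.321 and 1.3 in wild-type and between 0.217 and 0.317 in ΔAgo2 tumors. Vcam1 over Icam1 lay between 0.999 and 3.26 in wild-type and between 5.76 and 10.8 in ΔAgo2 tumors. Itgav over Itgb3 lay between 0.892 and 1.59 in wild-type and between 1.29 and 3.57 in ΔAgo2 tumors, and these ranges overlapped. The ratios carry no correction for GC content, which was 57.3% for Itga5, 43.6% for Itgav and 44.9% for Itgb1. It was 60% for Itgb4 and 48.9% for Itga6, and 58.2% for Itga2b and 52.1% for Itgb3. For Icam1 it was 55.4%, for Vcam1 40.1% and for Itga4 41.1%. The part of GC content in the ratios was not tested.

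**Figure D4:**
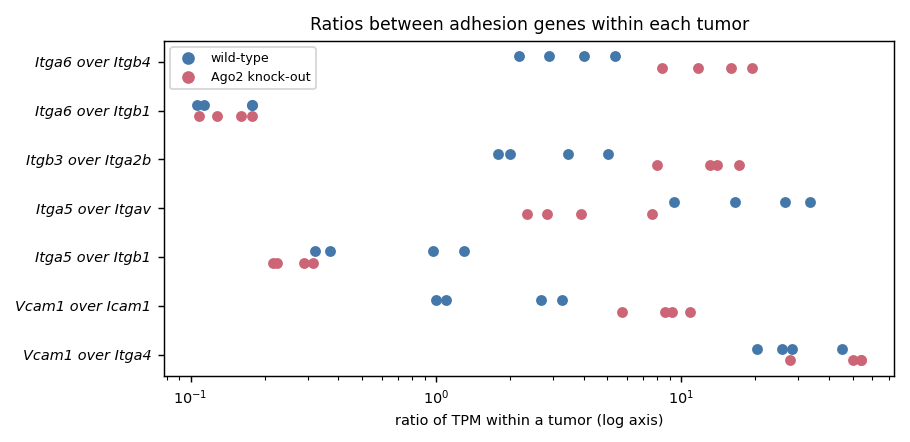
Ratio of TPM of 2 genes in the same tumor (log axis), with 1 point per tumor, blue for wild-type and red for ΔAgo2. The groups lie apart for Itga6 over Itgb4, Itgb3 over Itga2b, Itga5 over Itgav, Itga5 over Itgb1 and Vcam1 over Icam1, and overlap for Itga6 over Itgb1 and Vcam1 over Itga4. The TPM values are not corrected for GC content.

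Genes around these receptors were counted from lists. Of 27 talins, kindlins and focal adhesion adaptors tested, which link integrins to actin, none passed the threshold by edgeR, with a median log2 fold change of 0.07; 3 higher and 5 lower had an unadjusted p under 0.05, and DESeq2 called 2 and 2 and limma voom 5 and 4, counts to be read against the shares of all genes given above. Of 28 matrix ligands of integrins, 4 were lower (14.3%, beside 2.12% of all genes) and none was higher, with a median of -0.42. Of the genes above 0, 1 had an unadjusted p under 0.05 in edgeR's test, and DESeq2 called 1 higher and limma voom 2. Of those below 0, 10 had an unadjusted p under 0.05 in edgeR's test, and DESeq2 called 8 lower and limma voom 9. These counts are to be read against the same shares. The 4 lower genes were Edil3, an αvβ3 ligand of endothelium, with a mean of 3.07 ± 1.72 CPM in wild-type and 0.546 ± 0.232 CPM (SD, n = 4) in ΔAgo2 tumors, Lamb2, a laminin β chain, Fbln5, an elastic fiber protein, and Vwf, the von Willebrand factor. The log2 fold changes of Edil3, Lamb2 and Fbln5 were -2.49, -1.23 and -1.15, and that of Vwf was -1.09. Of 28 other genes of leukocyte trafficking, 2 were higher (7.14%, beside 1.36% of all genes) and 1 lower (3.57%, beside 2.12%), with a median of -0.01. Gcnt1, an enzyme that builds selectin ligands, and Cd44, the hyaluronan receptor, were higher at 1.66 and 0.88, and Jam3, a junctional adhesion molecule, was lower at -2.04. In edgeR's test 7 higher and 6 lower had an unadjusted p under 0.05. DESeq2 called 7 and 3 and limma voom 7 and 5, to be read against the same shares. Of 24 NF-kB and TNF target genes outside the members, none was higher by edgeR or DESeq2, also at an unadjusted p under 0.05 in edgeR's test, and limma voom called 2. Of these 24, Csf3 alone was lower by edgeR (4.17%, beside 2.12% of all genes), at -3.21 (edgeR adjusted p = 0.0272), and DESeq2 and limma voom each called 3 lower. Col1a1 and Col3a1, which carry the fibroblast sum given above, are also among these matrix ligands, and the part of the fibroblast markers in the matrix values was not tested.

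Lastly, the members' differences were set against base composition. Across the 30 genes tested, the log2 fold change had a Spearman correlation of -0.735 with the GC content of the longest transcript, beside -0.561 across all genes. Genes share libraries and are not independent replicates, so no p is given. The 12 members under 50% GC had a median log2 fold change of 0.90 and the 18 others of -0.22; with each library's GC trend removed these medians were 0.52 and -0.07. In that fit Itgav (1.35), Itgb3 (0.98), Vcam1 (0.89) and Itga7 (-1.09) still passed the threshold, and no other member did.

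**Figure D5:**
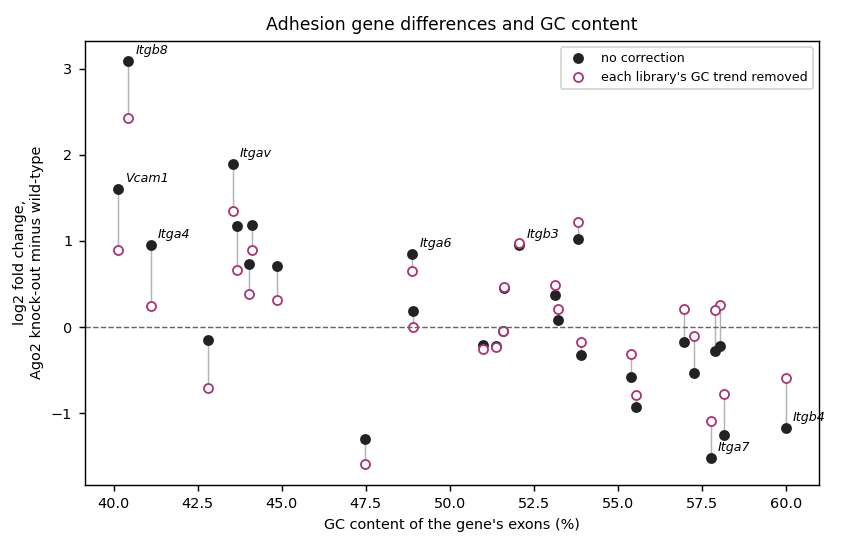
Log2 fold change of each of the 30 genes tested (ΔAgo2 minus wild-type) against the GC content of its exons in percent, taken from its longest transcript, black without and open with each library's GC trend removed, joined by a line. Vcam1 drops from 1.60 to 0.89 and Itga7 moves from -1.52 to -1.09, while Itgb3 at 52.1% GC stays near 0.95.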

How the data were processed

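Tumors were lysed in TRIzol, and libraries from a stranded Illumina mRNA ligation kit were sequenced paired-end on a NovaSeq. The authors deposited raw counts, whole numbers of reads per gene with no normalization. The study's methods, written for cultured cells, name a ribosomal RNA filter, alignment to mm10 and featureCounts. STAR is named in the submitters' processing notes; strand setting and annotation release are not given in the sources used here, so genes that overlap on either strand have uncertain counts. TPM values, also deposited by the authors (counts divided by gene length, scaled to a common total), were used for ratios between genes and as an alternative. Of 55487 identifiers, 99.29% matched GENCODE M21 on GRCm38, with all 32 members among them.

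The whole count table was fitted with edgeR 4.0.16 in R 4.3.3: filterByExpr, TMM, and the quasi-likelihood test without covariate, with Benjamini-Hochberg adjustment over 16061 genes at 0.05. The study names DESeq2, whose Wald test (DESeq2 1.42.0) was an alternative. CPM use TMM-scaled totals. The others were DESeq2 size factors, total counts, limma 3.58.1 voom with quality weights, filters of any count or of 10 counts in each library, thinning to the shallowest library, GC or length trends (fitted in each library on genes averaging 50 counts or more) as offsets, the replicate block, limma on log2(TPM + 1) and log2(TPM + 0.1) for genes of at least 0.5 TPM in 4 libraries, and leaving out each library. The procedure was tested on simulated data. The labels call the tumors biological replicates. Same-numbered tumors did not deviate together, so the numbers were not used as pairs.

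The members and lists were chosen with earlier results of these data known. Named in full are members past the threshold or with groups that do not overlap, Vcam1 with its receptor chains, the ICAMs, Madcam1 and the selectins; of pathway lists, the genes past the threshold (at most the 3 highest and 3 lowest); of marker lists, counts, sums and defining genes. Single-gene values outside this rule were added after they were seen. Promoter and microRNA sequences came from RefSeq (GRCm38.p6), and 3′ ends from the longest coding transcript of GENCODE M21. The cultured cells and transposable elements of the study were not analysed here.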

Additional observations from a re-analysis of the deposited data

Results flagged for a closer look

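Among 60 sets of 4 tumors (30 genes tested in 2 groups), 1 had a tumor far from the others by Dixon's criterion, where chance gives about 3. This was Itga5 in ΔAgo2 tumor 3, at 316.9 CPM, while ΔAgo2 tumors 1, 2 and 4 lay between 232 and 243.3 CPM, a gap of 0.866 of the range.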

How the results depend on the processing

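Of the 21 alternatives, DESeq2's Wald test called 6 members higher and 4 lower (6.99% and 7.17% of all genes), limma voom 8 and 5 (14.9% and 13.0%), and both log2(TPM + 1) and log2(TPM + 0.1) 0 and 0 (26 members tested; these shifted the median of all genes from 0.04 to 0.21 and 0.28). The lower count was 2 with no count filter (median of all genes 0.16), at equal depth and with the length correction, which no longer called Itgb3. Of all genes 1.54%, 2.54% and 4.85% were lower in these fits, in that order. With the replicate block 0 and 0 members were called (13 and 57 of all genes), and with the block and the GC correction 3 and 1 (0.685% and 1.22% of all genes). Same-numbered tumors correlated between -0.29 and 0.103, so the numbers were not taken as pairs. Leaving out each tumor gave 0 to 6 members higher and 0 to 3 lower, beside 0.123% to 6.01% and 0.418% to 4.99% of all genes. The median of the other integrins then lay between 0.20 and 0.65. That median was -0.10 with at least 10 counts in every library and -0.0862 at equal depth, where fewer members were tested (25). The leukocyte median was 0.14 without Itga4.

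The 4 called genes kept their direction in all 21 alternatives. Signs turned only in genes that were not called. With the GC correction, alone and with the block, Itgb7 was at 0.25 and 0.25, Itga3 at 0.19 and 0.18, Itgb5 at 0.20 and 0.20, and Itgam at -0.0013 and -0.025. On log2(TPM + 1) and log2(TPM + 0.1), Itgae was at 0.042 and 0.19, Itgb7 at 0.0450 and 0.0451, Itga1 at 0.065 and 0.12, Itgb5 at 0.0636 and 0.0640, Itga9 at 0.16 and 0.18, and Selp at 0.013 and 0.022. With voom Itgam was at -0.089 and Itgb5 at 0.018. At equal depth Itgal was at -0.058 and Selp at 0.036, with the length correction Itgal at -0.15, and Itga9 was at 0.024 and 0.018 with total counts and no count filter. Leaving out each tumor, Itgae ran from -0.51 to 0.28, Itgal from -0.071 to 0.28, Itga1 from -0.28 to 0.15, Itga11 from -1.23 to 0.46 and Itga9 from -0.19 to 0.054. The cause of these changes was not tested. Depth limits Itgb6, Itga8 and Itgb8, which had 0 counts in wild-type tumor 4; Itgad and Madcam1 had at most 5 and 4 counts even in the deeper libraries.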

Other observations

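Itgb7 was by far more abundant per gene length than the alpha chains it pairs with. It stood at 388.4, 629.7, 409 and 535.6 TPM in wild-type tumors 1 to 4 and at 444.5, 559.4, 521.6 and 468.1 TPM in ΔAgo2 tumors 1 to 4, at percentile 98.5 of the genes tested, the same as Itgb1. The mean TPM of Itga4 was 1.05 ± 0.549 in wild-type and 2.45 ± 1.63 in ΔAgo2 tumors (SD, n = 4), and that of Itgae 0.71 ± 0.48 and 0.715 ± 0.134. Itgb7 thus exceeded the sum of both alpha chains by 136- to 734-fold in wild-type and by 98.5- to 266-fold in ΔAgo2 tumors. It also exceeded Itgb2, the common beta chain of white blood cells, by 2.76- to 5.6-fold and by 2.03- to 3.72-fold. Summed T and NK cell markers reached at most 80.0 CPM in any tumor, and B and plasma cell markers at most 5.4 CPM. No other gene of the annotation shares exon bases with Itgb7. Which cells carried the transcript was not tested.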
